A study of Mus musculus with 2 samples.

Results

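10 genes that mark germ cells were followed in mouse embryos carrying the mDom-/- genotype and in wild-type embryos. They were chosen by symbol, as every probe of the array that the platform annotation assigns to Prdm1, Prdm14, Dppa3, Nanos3, Kit, Ddx4, Dazl, Mael, Stra8 or Hormad1, older synonyms included. Of these 10 genes, 9 had a probe, with 10 probes of the 36227 in the table, and Prdm14 had no probe listed. No member was reached through a probe shared with another gene.

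Both samples were total RNA of the embryo proper at embryonic day 8.5 (E8.5), hybridised to 1-colour CodeLink oligonucleotide arrays, 1 array for each group. The mDom-/- array held RNA pooled from 45 homozygous mutant embryos, and the wild-type array RNA pooled from 42 litter-matched embryos. mDom (p400, present symbol Ep400) encodes the ATPase of a chromatin-remodelling complex; the sources used here do not say how the allele was made, nor the strain or sex of the embryos. With 1 array of 1 pool in each group there was no spread between replicates, so no difference below has a test.

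In the mouse, primordial germ cells are set aside from the proximal epiblast and, around the stage sampled here, move from the base of the allantois into the hindgut. They are a very small part of the embryo. Their founding depends on the transcription factors encoded by Prdm1, Prdm14 and Tfap2c, and Dppa3 and Nanos3 come on soon after. Ddx4, Dazl and Mael are known for later germ cells that have reached the gonad, and Stra8 and Hormad1 for entry into and passage through meiosis, so the 10 genes span early and late germ cell life. Outside germ cells the later genes are kept silent, in part by DNA methylation of CpG-rich promoters and by a variant Polycomb complex that holds E2f6, Mga and Max.

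The probes were dim. Each intensity was divided by the median of its own array, which is the unit of all levels below, and a common floor was set at 0.541 medians, the higher of the 40th percentiles of both arrays. Of the 9 genes with a probe, 3 (Prdm1, Nanos3 and Kit) read above the floor on both arrays, 5 (Dppa3, Ddx4, Mael, Stra8 and Hormad1) on 1 array only, and Dazl on neither. Of all 18069 genes with a probe, 11926 read above it on both arrays, 1211 on 1 array only, and 27.3% on neither. A gene above the floor on at least 1 array was compared; a gene above it on 1 array only gives a bound on the ratio, not a ratio. That left 8 compared members. None passed a rule of 2-fold in either direction, while 1.77% of the 13137 compared genes of the arrays did (0.845% higher and 0.929% lower in the mDom-/- pool). The 3 members above the floor on both arrays were under 2-fold apart; for the other 5 the bound was under 2-fold, which does not show how far apart they were. Of the 3, Prdm1 read higher and Nanos3 and Kit lower in the mDom-/- pool, with a median log2 ratio (mDom-/- minus wild-type) of -0.27. Over all 8, 5 of whose values are set in sign by the array that passed and in size by the floor, 4 stood on either side and the median was 0.01, beside -0.00361 over all compared genes, which also hold bounds.

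**Figure D1:**
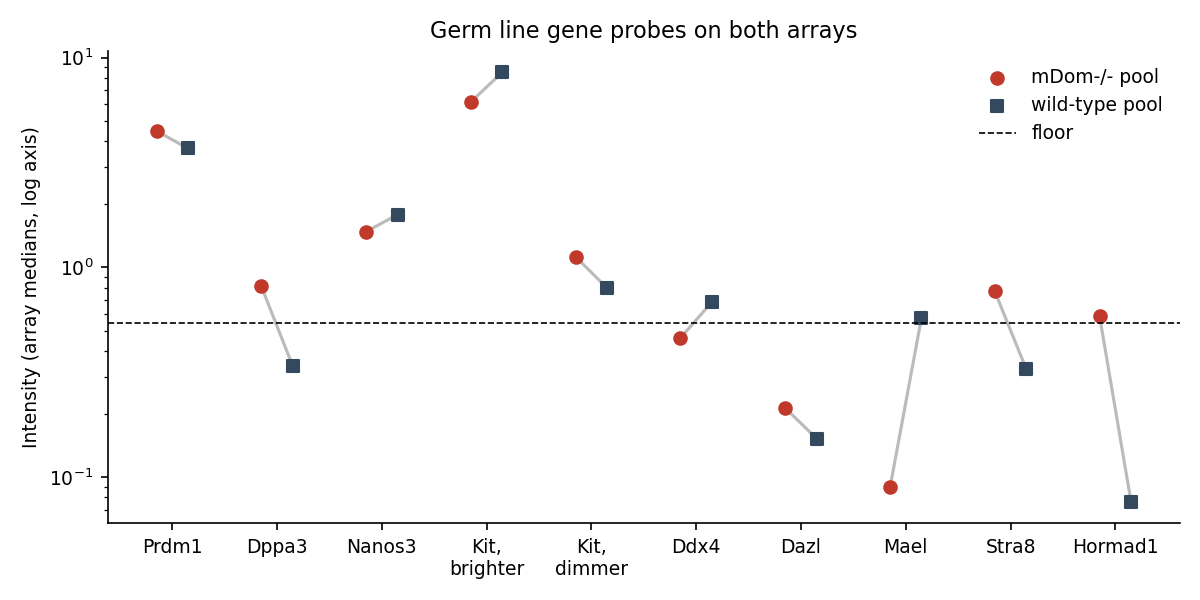
Intensity of each probe in array medians on a log axis, with the mDom-/- pool as circles on the left and the wild-type pool as squares on the right of each gene; the dashed line is the floor at 0.541. Prdm1, Nanos3 and both Kit probes lie above the line on both arrays, Dazl lies below it on both, and the other genes lie on either side of it.

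Of the 2 founding factors among the members, Prdm1 had a probe and Prdm14 had none listed. Prdm1 encodes Blimp1, a zinc finger repressor that shuts off the somatic programme in germ cell precursors, and it is also expressed in endoderm and other tissues of the embryo. It read 4.47 medians in the mDom-/- pool, against 3.69 in the wild-type pool. That is a 1.21-fold higher reading, a log2 ratio of 0.28. The only repeated measurement on these arrays was the agreement of probes of the same gene: 1302 genes had 2 probes above the floor on both arrays, and the differences within these pairs give an SD of 0.25 for a single probe's log2 ratio, and of 0.31 over the 184 pairs with a mean level under 2 medians. This SD covers probe error and not the spread between pools of embryos. The Prdm1 ratio was about as large as 1 such SD.

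The next genes to come on read on opposite sides of 0, Nanos3 within the probe SD and Dppa3 as a bound. Nanos3, which encodes an RNA-binding protein needed for the survival of migrating germ cells, read 1.48 medians in the mDom-/- pool, against 1.78 in the wild-type pool. Its log2 ratio of -0.27 was smaller in size than the probe SD at that level. Dppa3 (Stella, PGC7), a small nuclear protein gene that is a standard mark of early germ cells, read 0.811 medians in the mDom-/- pool, against 0.338 in the wild-type pool. Only the mDom-/- reading was above the floor, so Dppa3 was at least 1.5-fold higher in that pool. It was the only compared member past a rule of 1.5-fold, which 8.43% of all compared genes passed. In whole-embryo RNA, fewer germ cells and less RNA per germ cell cannot be told apart for any of these genes.

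Kit, the receptor for stem cell factor on germ cells, was the only member with more than 1 probe, and its probes disagreed. The brighter probe read 6.15 medians in the mDom-/- pool, against 8.52 in the wild-type pool. The dimmer probe read 1.12 medians in the mDom-/- pool, against 0.796 in the wild-type pool. The log2 ratio was thus -0.47 by the brighter probe, which stands for the gene here, and 0.50 by the dimmer one, and the mean over both was 0.01. A gap of 0.97 between probes is uncommon on these arrays: 22 of the 1302 pairs (1.69%) were at least as far apart, 20 of them with opposite signs. The direction of Kit therefore depends on the probe. Kitl, the gene of its ligand (named after its value was seen), read 25.1 medians in the mDom-/- pool, against 24.3 in the wild-type pool, a log2 ratio of 0.05.

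Kit is also made by blood progenitors, mast cells and melanoblasts. Of 10 markers of blood progenitors and mast cells, 6 were compared and none passed the 2-fold rule; their summed level was 54.5 medians in the mDom-/- pool and 56.6 in the wild-type pool. The blood transcription factor genes Tal1, Lmo2 and Spi1 had log2 ratios of -0.02, -0.39 and -0.03. Tal1 made up most of the sum, with 42.4 medians in the mDom-/- pool and 43.0 in the wild-type pool. Of the other compared markers, Myb had 0.60 and Runx1 0.28, and Gata1 was above the floor in the wild-type pool only. These others were singled out with their values known. Gata2, Lyl1, Cd34 and Itga2b, given as the markers at the floor, were below it on both arrays. Of 5 neural crest and melanoblast markers, all compared, the sum was 20.4 medians in the mDom-/- pool and 26.8 in the wild-type pool, with a median log2 ratio of -0.00684. Sox10, a transcription factor of the neural crest, read 5.79 medians in the mDom-/- pool, against 13.3 in the wild-type pool, a gap wider than that of the sum. Its log2 ratio was -1.20, and it alone of the 5 passed the 2-fold rule, which 1.77% of all compared genes passed. Pax3 and Mitf, transcription factor genes of crest and pigment cells, had -0.00684 and 0.31, although a second, dimmer Pax3 probe had -0.24. Of the remaining markers, singled out with their values known, Ednrb had -0.05 and Dct was above the floor in the mDom-/- pool only. The part of these cells in the Kit readings was not tested.

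The genes of later germ cells sat at the floor. Ddx4, the mouse Vasa homologue and an RNA helicase of the germ granule, read 0.461 medians in the mDom-/- pool, against 0.683 in the wild-type pool, which makes it at least 1.26-fold lower. Mael, which encodes a piRNA pathway protein (piRNAs are small RNAs that silence transposons in germ cells), read 0.0893 medians in the mDom-/- pool, against 0.574 in the wild-type pool, at least 1.06-fold lower. Dazl, an RNA-binding protein gene, read 0.213 medians in the mDom-/- pool, against 0.153 in the wild-type pool, both below the floor, and no ratio is given. The bounds for Ddx4 and Mael stood on the wild-type side.

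Both meiosis genes stood on the other side. Stra8, the retinoic acid-induced gate to meiosis, read 0.768 medians in the mDom-/- pool, against 0.327 in the wild-type pool, at least 1.42-fold higher. Hormad1, a protein of the meiotic chromosome axis, read 0.585 medians in the mDom-/- pool, against 0.0764 in the wild-type pool, at least 1.08-fold higher. The readings above the floor were close to it: over the 5 genes with bounds they spanned 0.574 to 0.811 medians. As log2 ratios, the bounds of Mael (-0.09) and Hormad1 (0.11) were smaller in size than the probe SD of 0.31 for dim pairs. That of Ddx4 (-0.34) was about as large, and those of Stra8 (0.51) and Dppa3 (0.59) were larger. The SD came from pairs above the floor on both arrays, so it does not cover readings below the floor.

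**Figure D2:**
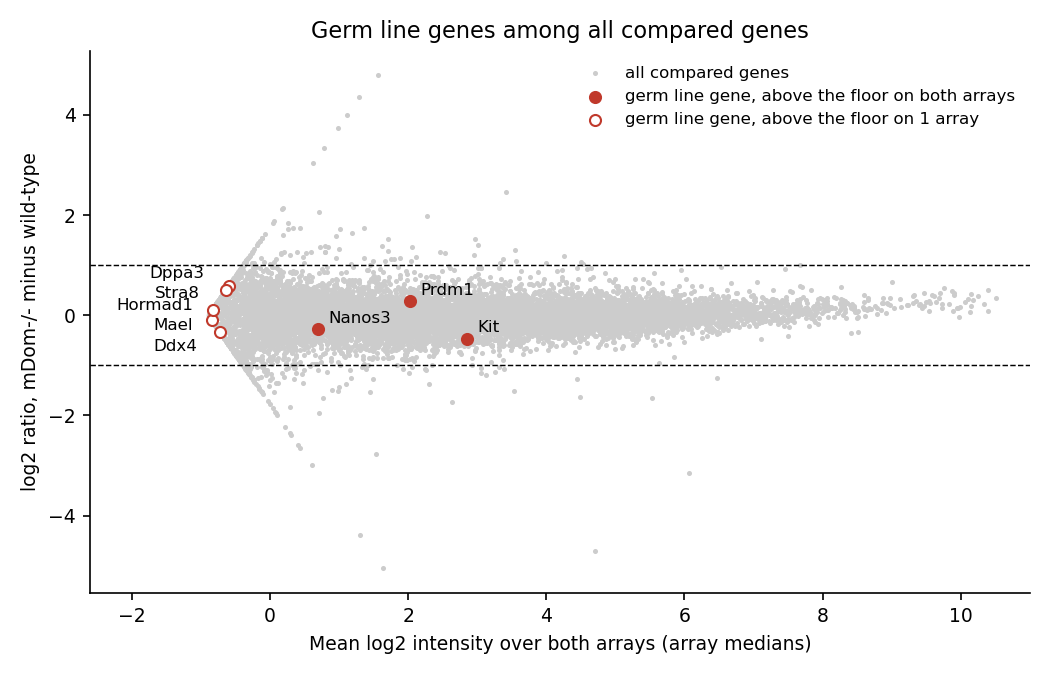
The log2 ratio (mDom-/- minus wild-type) of each compared gene against its mean log2 intensity over both arrays, values below the floor raised to it; the dashed lines mark 2-fold. The plotted values of all 8 compared germ line genes lie inside the lines, and the 5 open circles, above the floor on 1 array only, are bounds and lie at the dim edge.

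How far apart the dim members read depended on the floor. With the floor at the 25th percentile (0.24 medians), 4 of the 8 compared members were at least 2-fold apart. Dppa3 and Stra8, now above the floor on both arrays, were higher in the mDom-/- pool, with log2 ratios of 1.26 and 1.23. Hormad1 was also higher, with 1.29, and Mael lower, with -1.26. Both stayed below this floor on 1 array, so their values are still bounds. At that floor 6.68% of all 15792 compared genes were called at least 2-fold apart, bounds included. Among the 1211 genes that, like these members, were above the 40th percentile floor on 1 array only, the share was 60%, with 29.7% higher and 30.3% lower in the mDom-/- pool. The 4 of 5 dim members past 2-fold are read against that share, which was near evenly split by direction over the arrays. With the floor at the 60th percentile (1.76 medians) only Prdm1, Kit and Nanos3 were compared. Nanos3 became a bound, at -0.02, since its mDom-/- reading of 1.48 medians was below this floor. No member passed the 2-fold rule, beside 0.691% of all genes compared there.

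**Figure D3:**
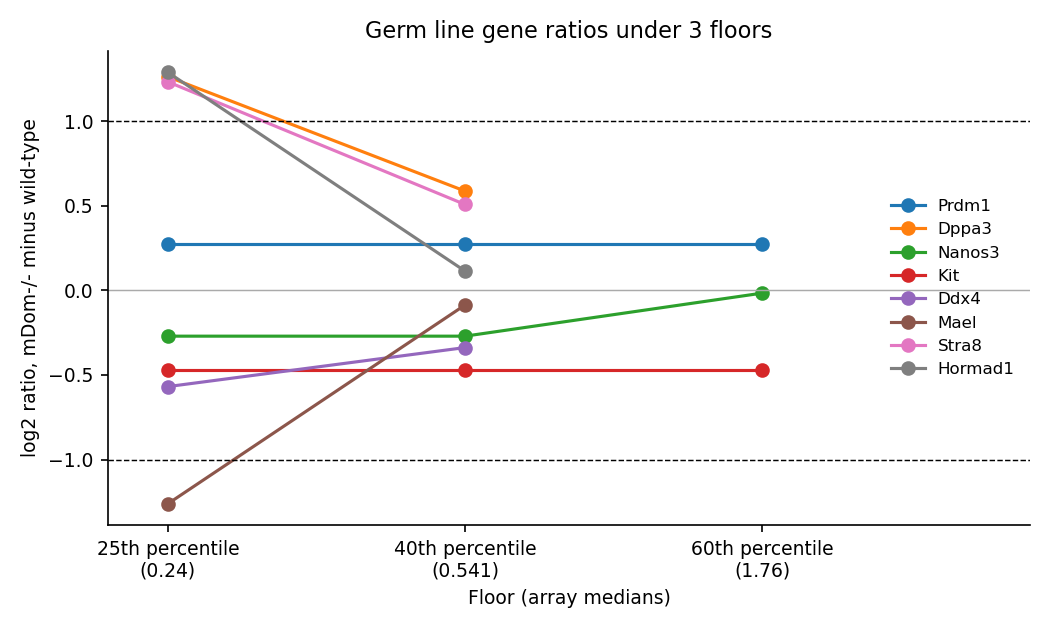
The log2 ratio (mDom-/- minus wild-type) of each compared germ line gene with the floor at the 25th, 40th and 60th percentile; the dashed lines mark 2-fold. Prdm1 and Kit do not move, while Dppa3, Stra8, Hormad1 and Mael are past 2-fold at the lowest floor, bounds under 2-fold at the 40th percentile and absent at the 60th. Hormad1 and Mael at the lowest floor and Nanos3 at the highest are also bounds.

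Promoter sequences are shown for the 3 later genes whose windows hold both motifs tied, in earlier work on mouse cells, to germ line silencing. RefSeq promoter windows of GRCm38.p6, from 250 bases before to 50 after the start, were at hand for 8 of the 10 members; Prdm14 and Dppa3 had none. Each window was searched on both strands for CACGTG, the E-box core bound by Max with Mga, and for GCGGGA, an E2F-type core. For Hormad1 and Kit, each with 2 overlapping windows, the one with the lower start coordinate was used. In the lines below, the windows read 5′ to 3′ on the gene's strand, with matches to either motif in capitals: Ddx4 at chr13:112652261-112652560 (minus strand), Mael at chr1:166238695-166238994 (minus strand) and Hormad1 at chr3:95559427-95559726 (plus strand).
Ddx4: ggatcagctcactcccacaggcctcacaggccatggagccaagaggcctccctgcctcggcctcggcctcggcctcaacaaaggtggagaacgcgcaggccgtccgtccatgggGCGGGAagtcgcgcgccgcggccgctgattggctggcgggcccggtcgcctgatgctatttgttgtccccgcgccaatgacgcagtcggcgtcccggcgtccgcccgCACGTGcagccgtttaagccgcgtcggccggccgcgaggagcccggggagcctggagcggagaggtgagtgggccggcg
Mael: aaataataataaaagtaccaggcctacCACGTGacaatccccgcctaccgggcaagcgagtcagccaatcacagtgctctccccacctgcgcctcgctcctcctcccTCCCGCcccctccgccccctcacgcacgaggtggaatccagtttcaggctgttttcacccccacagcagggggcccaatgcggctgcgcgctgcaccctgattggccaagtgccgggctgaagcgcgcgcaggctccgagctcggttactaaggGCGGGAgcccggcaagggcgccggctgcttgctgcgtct
Hormad1: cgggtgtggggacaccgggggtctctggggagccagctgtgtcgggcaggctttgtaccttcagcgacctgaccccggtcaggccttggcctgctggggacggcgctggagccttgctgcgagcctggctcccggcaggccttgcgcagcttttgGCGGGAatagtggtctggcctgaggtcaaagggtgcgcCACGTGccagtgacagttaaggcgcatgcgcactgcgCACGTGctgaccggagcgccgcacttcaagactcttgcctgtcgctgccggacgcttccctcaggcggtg

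Of the 8 windows, those of Ddx4, Mael and Hormad1 held CACGTG, against 7.15% of all 32851 windows in the table. The windows of these 3 genes and of Kit held GCGGGA or its complement, against 20.0% of all windows. Only 1.99% of all windows held both. Both motifs contain a CpG, and these shares over all windows were not matched for CpG or GC content. GC content was 72% in the window of Ddx4, 65% in Mael and 67.3% in Hormad1, beside a median of 52.7% over all windows. The E-box match began 29 bases before the start in Ddx4, 223 in Mael, and 57 and 20 in Hormad1. The windows of Dazl, Nanos3, Prdm1 and Stra8 held neither motif. CpG dinucleotides numbered 38 in the window of Ddx4, 28 in Dazl, 24 in Mael, 24 in Hormad1, 20 in Kit, 20 in Prdm1, 10 in Stra8 and 3 in Nanos3, beside a median of 7 over all windows. The genes whose windows held both motifs did not read the same way: Hormad1 was higher, and Ddx4 and Mael lower, in the mDom-/- pool, all 3 as bounds near the floor. A match is a match of letters and no evidence of binding.

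**Figure D4:**
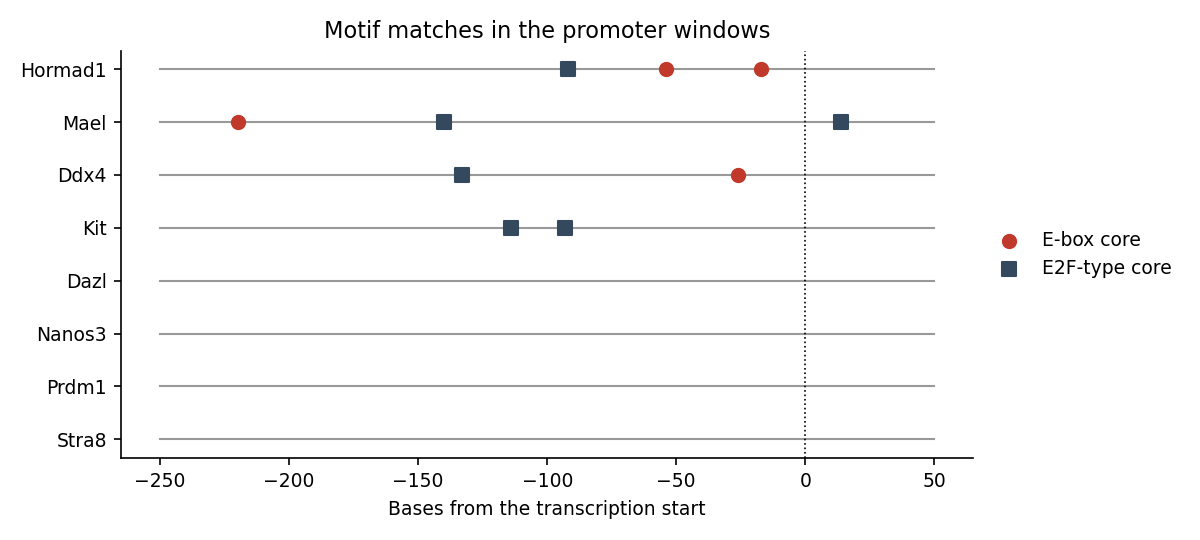
Matches to the E-box core (circles) and the E2F-type core (squares) along the promoter windows of 8 germ line genes, by distance in bases from the transcription start (dotted line). Ddx4, Mael and Hormad1 hold both motifs, Kit the E2F-type core alone, and the other 4 genes neither.

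Other genes of germ cell formation and migration were mostly bright enough to be measured. Of 18 listed, 14 were compared, 10 above 0 and 4 below, 1 of the 10 (Bmp8b) as a bound, beside 6499 above 0 among all 13137 compared genes. The median log2 ratio was 0.22, and none passed the 2-fold rule. The counts above and below 0 were the same under the 4 other scalings, with medians from 0.17 to 0.24. Ifitm1, an interferon-induced membrane protein gene of the cluster that marks germ cell precursors, read 444.1 medians in the mDom-/- pool, against 337.0 in the wild-type pool, a log2 ratio of 0.40. Ifitm2 had 0.19. Lin28a, an inhibitor of let-7 processing that germ cell precursors need, read 200.8 medians in the mDom-/- pool, against 156.4 in the wild-type pool, a log2 ratio of 0.36. With loess, which levels a trend of bright genes, Ifitm1 had 0.19 and Lin28a 0.21. The other genes given here were named after their values were seen. Ifitm3 (fragilis), the classic mark of cells competent to form germ cells, read 56.1 medians in the mDom-/- pool, against 35.9 in the wild-type pool, a log2 ratio of 0.64 and the highest of the list. Tfap2c, which acts with Prdm1 and Prdm14, had 0.25, and Dnd1, an RNA-binding protein gene of early germ cells, had -0.15 from readings of 1.09 medians in the mDom-/- pool and 1.21 in the wild-type pool. Ifitm genes, Lin28a and Tfap2c are also expressed in other cells of the embryo.

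Genes of the piRNA pathway and of meiosis were mostly at the floor, as the later members were. Of 22 piRNA pathway and germ granule genes, 20 had a probe and 9 were compared, with a median log2 ratio of 0.07. Of 32 meiosis genes, 27 had a probe and 13 were compared, with a median of -0.02. Of 15 other germ line genes, 11 had a probe and 5 were compared, with a median of -0.05. Over these 3 lists together 31 of the 58 genes with a probe (53.4%) were below the floor on both arrays, beside 27.3% of all genes with a probe. Of the 27 compared, 13 stood above and 14 below 0, bounds included, and none passed the 2-fold rule.

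The brightest of them were within 2-fold. Ddx25, a testis RNA helicase gene, read 8.18 medians in the mDom-/- pool, against 8.56 in the wild-type pool, and the log2 ratios of Tdrd12 and Pld6, both piRNA pathway genes, were 0.07 and 0.26. Trip13, an ATPase of the meiotic and mitotic checkpoints that dividing cells of all kinds use, read 39.1 medians in the mDom-/- pool, against 48.9 in the wild-type pool, a log2 ratio of -0.32. Psmc3ip, a recombination cofactor gene, had 0.09 and Tex15, a gene needed in male meiosis, 0.41. In the list of other germ line genes, the oocyte growth factor gene Gdf9, the testis dipeptidase gene Dpep3 and the germ cell ADP/ATP carrier gene Slc25a31 had -0.12, -0.05 and -0.23.

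Genes that keep the germ line programme silent in somatic cells were bright enough to be measured. All 15 of the 16 listed that had a probe were above the floor on both arrays, beside 11926 of all 18069 genes with a probe. In the mDom-/- pool 5 read higher and 10 lower, with a median log2 ratio of -0.14, and none was 2-fold apart. Among all 13137 compared genes, bounds included, 6499 stood above and 6638 below 0, with a median of -0.00361. Quantile normalization and loess put 3 of the 15 listed genes higher and 12 lower. Dnmt3b, the de novo DNA methyltransferase gene of the early embryo, read 141.5 medians in the mDom-/- pool, against 109.1 in the wild-type pool, a log2 ratio of 0.38. Uhrf1, which recruits the maintenance methyltransferase, had 0.00333, although its second probe had -0.33, and Ehmt1, a histone H3 lysine methyltransferase gene, had 0.03; both were below 0 with quantile normalization and loess. Max, E2f6 and Mga, subunits of the variant Polycomb complex (also singled out with their values known), had -0.64, -0.14 and -0.04. Max read 3.72 medians in the mDom-/- pool, against 5.81 in the wild-type pool, the lowest ratio of the list.

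**Figure D5:**
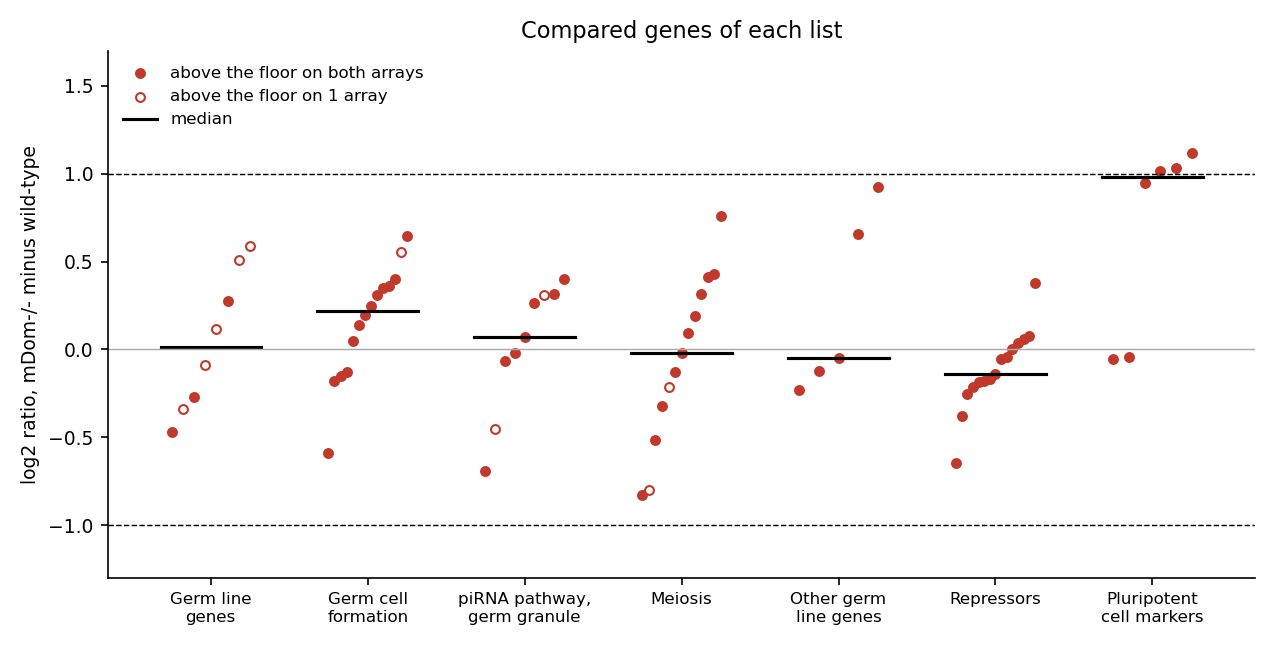
The log2 ratio (mDom-/- minus wild-type) of each compared gene by list, sorted within a list, with filled circles for genes above the floor on both arrays, open circles for bounds, bars for medians and dashed lines at 2-fold. The germ line genes lie on both sides of 0, and 3 pluripotent cell markers lie past 2-fold.

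Germ cells share Pou5f1 and Nanog with pluripotent cells, and both read higher in the mDom-/- pool. Of 8 pluripotent cell markers 6 were compared, with a summed level of 56.0 medians in the mDom-/- pool and 35.2 in the wild-type pool, and Sox2 and Zfp42 were below the floor on both arrays. Pou5f1, Nanog, Utf1 and Dppa5a had log2 ratios of 0.95, 1.12, 1.03 and 1.02, while Klf2 and Esrrb (named after its value was seen) had -0.06 and -0.04. Prdm1, Nanos3 and the brighter Kit probe, the members above the floor on both arrays, had 0.28, -0.27 and -0.47. The dimmer Kit probe had 0.50. Dppa3, a bound, was at least 1.5-fold higher in the mDom-/- pool, and the bounds of the other members went both ways. Endoderm markers, a tissue that also expresses Prdm1, were all compared (6 of 6). Their summed level was 490.8 medians in the mDom-/- pool and 430.7 in the wild-type pool. By log2 ratio 3 stood above and 3 below 0, with a median of 0.11. The brightest, Ttr, Apoa1 and Afp, had 0.59, -0.13 and -0.33. Ttr read 251.2 medians in the mDom-/- pool, against 166.6 in the wild-type pool, a gap wider than that of the sum. The dimmer Sox17, Foxa2 and Cdx2, added here with their ratios already in view, stood at 0.52, 0.36 and -0.14. Of 5 trophoblast markers, 3 were compared, with a sum of 28.1 medians in the mDom-/- pool and 30.4 in the wild-type pool; Plac1, Hand1 and Ascl2 had -0.23, 0.16 and 0.50, and Tpbpa was below the floor on both arrays. The part of these tissues in the readings of the members was not tested.

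The arrays could not check the genotype: the 2 probes of Ep400 read -0.0295 and 0.0714 medians in the mDom-/- pool and 0.215 and 0.470 in the wild-type pool, all below the floor, and the sources used here do not say where in the gene they lie.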

How the data were processed

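The deposited table holds 1 intensity per probe and array on a linear scale; per the labels, the authors analysed the images with the CodeLink System Software. The sources used here do not give the software version, background correction, scaling or detection flags. The deposited intensities had medians of 1.0485 (mDom-/-) and 1.0503 (wild-type), and 2718 and 2656 values below 0, so they had been scaled per array and could fall below 0. The code -9999 was read as no value (106 mDom-/- and 105 wild-type probes).

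Of the 36227 probes, 21615 had 1 gene symbol in the platform annotation, 681 several and 13931 none listed; 21487 were matched by Entrez identifier to the RefSeq gene table of GRCm38.p6 for current symbols. Genes were named from probes with 1 symbol only. Each array was divided by its median, raised to the floor and put on the log2 scale. A gene took its probe with the highest mean level. With 1 array per group nothing was tested; a gene was counted as apart at 2-fold or more, and precision is limited by the number of arrays.

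Members, lists and rules were chosen with earlier results of these data known. Genes named were all members, and from each wider list those at least 2-fold apart and the 3 with the highest mean level; others are marked, or are cell type markers below the floor. Alternatives covered scaling (none, 75th percentile, quantile, loess with span 0.3), floors at the 25th and 60th percentile, the mean over probes, genes above the floor on both arrays, and size rules of 1.5-fold and 3-fold. The steps were tested on simulated data with large changes in bright probes only, so the bounds at the floor and small ratios were not covered. Python 3.11.15, numpy 2.4.6, pandas 2.3.3 and statsmodels 0.14.6 were used.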

Additional observations from a re-analysis of the deposited data

How the results depend on the processing

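No member passed the 2-fold rule under the 4 scaling alternatives, the floor at the 60th percentile, the mean over probes, the restriction to genes above the floor on both arrays or the 3-fold rule. The count was 4 with the floor at the 25th percentile, where lower readings enter, and 1 (Dppa3, a bound) with the 1.5-fold rule, which 8.43% of all compared genes passed. The median log2 ratio of the members stayed between -0.02 and 0.06, except over the 3 members above the floor on both arrays, where it was -0.27 because the bounds were left out. Of 54 values of single members recomputed under an alternative, 6 moved by more than the probe SD of 0.25. No member was 2-fold apart under the main settings, so there was no such call to reverse. Kit alone changed sign, to 0.01 with the mean over its probes. The probe SD, recomputed under settings chosen after seeing the data, lay between 0.20 and 0.37. No paired analysis was possible because each group holds 1 array. Intensity near the floor limits Dppa3, Ddx4, Mael, Stra8, Hormad1 and Dazl.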

Other observations

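Among the wider germ line lists the ratios nearest to 2-fold, named after their values were seen, went both ways and came from dim probes, and that of Smc1b is a bound, so how far apart it was is not known. Boll, a relative of Dazl that acts in male meiosis, read 1.32 medians in the mDom-/- pool and 0.698 in the wild-type pool, a log2 ratio of 0.92. Sohlh2, a transcription factor gene of germ cell differentiation, read 1.20 medians in the mDom-/- pool and 0.710 in the wild-type pool, a log2 ratio of 0.76. Meiob, a single-strand DNA-binding protein gene of meiotic recombination, read 0.559 medians in the mDom-/- pool and 0.995 in the wild-type pool, a log2 ratio of -0.83. Smc1b, the meiotic cohesin gene, read 0.116 medians in the mDom-/- pool and 0.941 in the wild-type pool, at least 1.74-fold lower. Tdrd7, a germ granule gene also used in the lens, read 1.06 medians in the mDom-/- pool and 1.72 in the wild-type pool, a log2 ratio of -0.69.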
